A study of Mus musculus with 6 samples.

Results

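The proteasome genes of the mouse oviduct are described here: the subunits of the 20S core particle and the 19S regulatory particle, the inducible beta subunits of the immunoproteasome, the proteasome activators and a set of assembly chaperones. They were taken from a fixed list of 43 gene symbols. The list named genes by family and was drawn up with earlier results of these data known. A member needed a probe set annotated to that gene and no other, and each gene was represented by its brightest probe set. This gave 42 genes of 18193 measured in all. Psme2 was left without a value, because its 1 probe set is also annotated to Psme2b.

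The study compared whole oviducts of MF1 mice, an outbred stock, between 3 wild-type (Wt1 +/+) and 3 heterozygous (Wt1 ko/+) samples. The sires were wild type in both groups, and tissue was collected at embryonic day 2.5, when embryos are still in the tube. Wt1 is a transcription factor of the zinc finger family, and the design contrasts 2 copies of its gene with 1. The sources used here do not give how the ko allele was made, the age of the females or whether animals were pooled, so p-values measure only the spread between these samples, which may in part be technical. Values of a gene in a genotype are given below in the order of replicates 1, 2 and 3, as quantile-normalized log2 intensities, and a difference is heterozygous minus wild type on that scale.

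The proteasome degrades proteins tagged with ubiquitin. Rings of alpha and beta subunits form the barrel of the core particle, and a few of the beta subunits carry the cutting sites inside it. The regulatory particle binds ubiquitin, removes it, unfolds the substrate with a ring of ATPases and feeds it into the barrel. In leukocytes and in cells exposed to interferon, inducible beta subunits replace the catalytic ones and favour peptides for presentation on MHC class I, while alternative activators can cap the barrel in place of the regulatory particle.

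The median intensity of the arrays lay between 151.6 and 167.8. The 3' to 5' ratio of the Actb control probe sets, a sign of RNA integrity, was 5.90 in wild-type replicate 3 and between 1.67 and 2.49 in the other 5 arrays. Markers of oviduct epithelium were bright in every array: Ovgp1, the oviductal glycoprotein, read 14.26 to 14.36 on the log2 scale, Foxj1, the regulator of motile cilia, 11.65 to 12.20, and Krt18, a keratin of simple epithelia, 13.36 to 13.58. The targeted gene, Wt1, read 12.17, 12.06 and 11.67 in wild type against 11.12, 11.27 and 11.79 in heterozygotes. The genotypes overlapped, since heterozygous replicate 3 lay above wild-type replicate 3. The difference was -0.57 (standard error 0.23, 95% interval from -1.14 to -0.0025, limma p = 0.0493, adjusted p = 0.771, exact permutation p = 0.2). Where the Wt1 probe set lies relative to the altered part of the allele is unknown, so it is a weak check of the labels. Smooth muscle markers were higher in all 6 of 6 genes, with summed intensities of 28961 to 31126 in wild type and 32773 to 43761 in heterozygotes, none passing the adjusted threshold (limma). Endothelial markers (4 of 4 higher) summed to 1484 to 1808 against 1928 to 2336, and adipocyte markers (2 of 3 higher) to 132 to 168 against 328 to 596, while 4 of 5 markers of ciliated cells were lower, with sums of 19087 to 20652 against 16318 to 19337. The part of these cell types in the values of the proteasome genes was not tested.

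No proteasome gene passed the test for a difference between the genotypes. With limma, 0 of 42 members passed an adjusted p of 0.05, against 0.0165% of all genes, and 0 of 42 had an unadjusted p under 0.05, against 6.44% of all genes. The lowest adjusted p among the members was 0.809. Both genotypes overlapped in 41 members, and the 1 member without overlap, Psmd4, is 2.38% of the 42, against 11.8% of all genes. These shares of the members lay below those of all genes. Of the 42, 23 stood higher and 19 lower in heterozygous oviducts, with a median difference of 0.01 on the log2 scale. Without wild-type replicate 1 the count was 18 higher and 24 lower. The median over all genes was -0.03, with 8187 higher and 10006 lower.

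The intervals bound the differences. The difference was smaller than 1.2-fold in 39 of the 42 members, and the exceptions were Psma4, Psmd3 and Psmd7. So it was in 67.9% of all genes and in 82.8% of those at least as bright as the dimmest member. The 95% interval of the difference lay wholly within 1.5-fold in either direction for 30 members and within 2-fold for 40, the exceptions at 2-fold being Psma4 and Psmd7. Among the 10073 genes at least as bright as the dimmest member, 61.4% and 93.8% of the intervals lay within those bounds. For no member did the interval lie within 1.2-fold, so the intervals do not exclude a difference of that size for any of them.

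**Figure D1:**
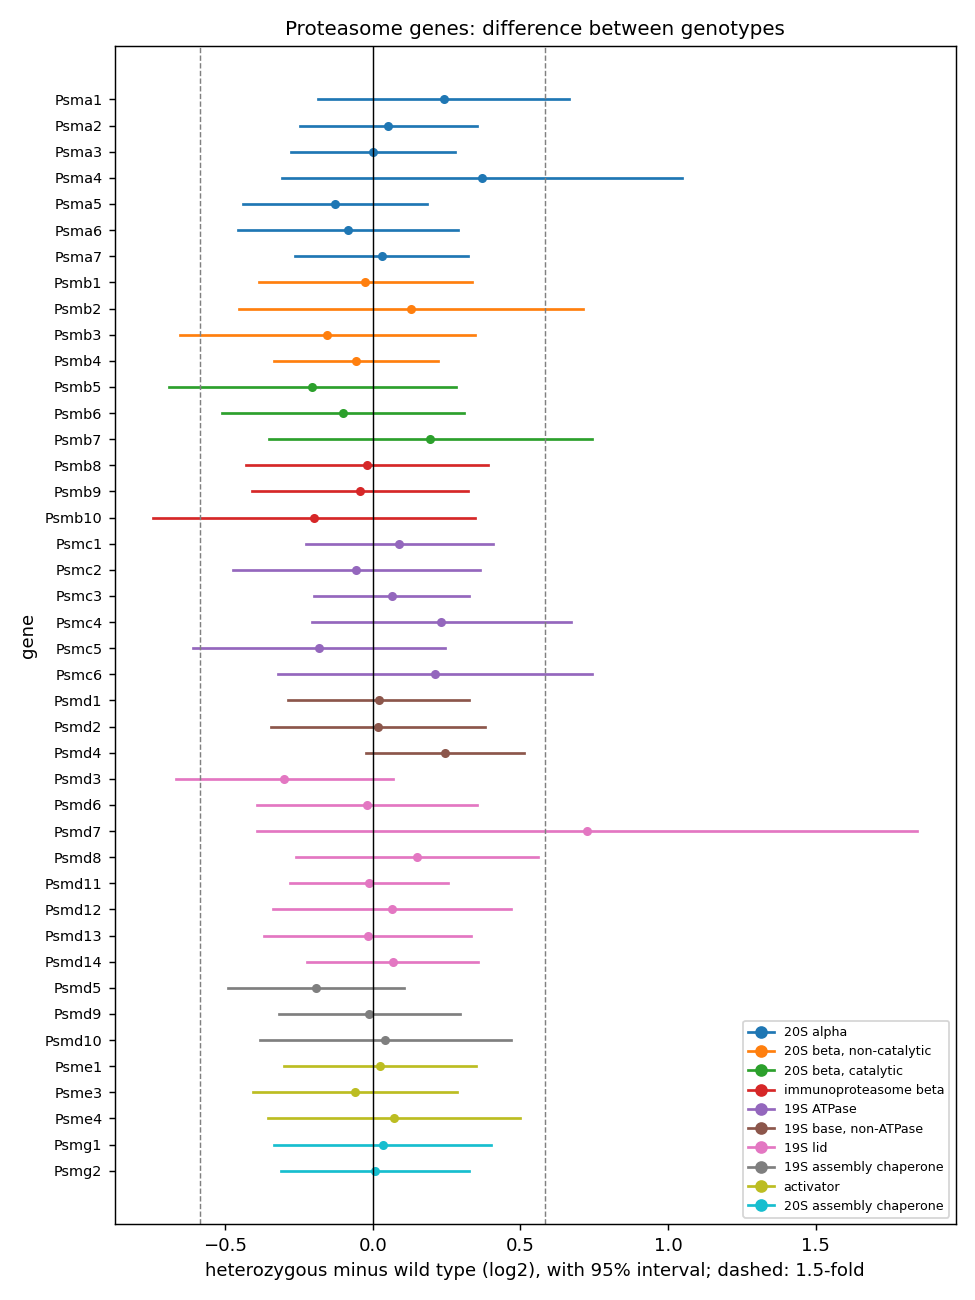
Difference between heterozygous and wild-type oviducts (log2, horizontal axis) for each of the 42 proteasome genes (vertical axis), coloured by role; points are differences of means over 3 arrays a group, bars are 95% intervals from limma and dashed lines mark 1.5-fold. Every interval spans 0, and those of Psma4 and Psmd7 are the ones that reach beyond 2-fold.

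The alpha subunits form the outer rings of the barrel and gate its entrance. All 7 were measured, 5 higher and 2 lower, with a median difference of 0.03 and a range from -0.13 to 0.37. Psma3 was among the steadiest genes: it read 12.62, 12.64 and 12.67 in wild type against 12.74, 12.62 and 12.56 in heterozygotes. The genotypes overlapped, and the difference was 0.00 with a 95% interval from -0.28 to 0.28.

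Psma4, which had the largest difference of the ring, read 11.59, 11.22 and 10.57 in wild type against 11.32, 11.52 and 11.64 in heterozygotes. Wild-type replicate 3 lay well below the other 5 arrays, which overlapped. The difference of 0.37 (standard error 0.28, limma adjusted p = 0.891) was 0.09 without that array and 0.60 without wild-type replicate 1. Psma1 read 11.58, 11.26 and 11.10 in wild type against 11.39, 11.55 and 11.72 in heterozygotes. It too was lowest in wild-type replicate 3, and the overlapping genotypes differed by 0.24 (standard error 0.17, adjusted p = 0.891), or by 0.13 without that array, 0.16 without heterozygous replicate 3 and 0.37 without wild-type replicate 1. The much dimmer other probe sets of Psma1 gave -0.19, 0.09 and 0.27. Psma5 read 12.19, 12.04 and 12.33 in wild type against 12.11, 12.06 and 12.00 in heterozygotes. Here wild-type replicate 3 was the highest array, the genotypes overlapped, and the difference was -0.13 (standard error 0.13, adjusted p = 0.913), or -0.06 without that array and -0.20 without wild-type replicate 2. The next brightest Psma5 probe set gave 0.06. Psma2, Psma6 and Psma7 differed by 0.05, -0.08 and 0.03.

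Among the beta subunits without a cutting site, Psmb1 to Psmb4, the differences were -0.03, 0.13, -0.15 and -0.06. Psmb2 had the largest standard error of these 4, 0.24, with arrays from 10.42 to 10.90 in wild type and from 10.40 to 11.09 in heterozygotes. Psmb4 was steady, with means of 12.54 ± 0.08 (SD, n = 3) and 12.48 ± 0.05 (SD, n = 3).

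The catalytic beta subunits differed in sign. Psmb5, which carries the chymotrypsin-like site, read 11.25, 11.71 and 11.86 in wild type against 11.51, 11.48 and 11.22 in heterozygotes. Psmb6, of the caspase-like site, read 11.34, 11.55 and 11.75 in wild type against 11.57, 11.54 and 11.23. For both genes wild-type replicate 3 was the highest array and heterozygous replicate 3 the lowest, with the rest in between. Psmb7, of the trypsin-like site, was instead lowest in wild-type replicate 3: it read 11.90, 11.81 and 11.22 against 11.91, 11.99 and 11.61. The genotypes overlapped for all 3 genes. The differences were -0.20 (standard error 0.20) for Psmb5, -0.10 (0.17) for Psmb6 and 0.20 (0.22) for Psmb7, with limma adjusted p from 0.911 to 0.944. Without wild-type replicate 3 they were -0.08, 0.00 and -0.01. Without wild-type replicate 1 Psmb5 stood at -0.38.

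Proteasome genes are known to be induced as a group by the transcription factor Nfe2l1 through antioxidant response elements when proteasome activity falls. The element's core, written TGACNNNGC and sought on both strands, occurred in 6 of 39 promoters of the listed genes, 15.4%, against 12.4% of 32851 promoters of the same length (250 bases before the transcription start to 50 after it, RefSeq, GRCm38.p6). Promoters were in the table for 36 of the 43 listed genes. The stretches around the matches of Psmb5, Psmb6 and Psmd9 are shown because 2 of them belong to catalytic subunits and the third to an assembly chaperone, all close to the start. The match is in capitals, 5' to 3' on the strand of the gene. They lie at chr14:54618023-54618053 (minus strand), chr11:70525337-70525356 (plus) and chr5:123228148-123228178 (plus), and the matches begin 47, 9 and 31 bases before the start.
Psmb5: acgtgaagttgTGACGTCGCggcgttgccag
Psmb6: actaaagagagTGACGGAGC
Psmd9: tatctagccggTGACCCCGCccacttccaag
A match describes these letters only. Psmb5, Psmb6 and Psmd9, at -0.20, -0.10 and -0.01, overlapped between the genotypes.

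A CCAAT box, which binds the trimeric factor NF-Y, was sought in the same windows on both strands. It occurred in 13 of the 39 promoters, 33.3%, against 37.4% of all promoters. Matches of different motifs did not overlap each other. The stretches of Psma2 (chr13:14613177-14613203, plus strand), Psmb3 (chr11:97703380-97703406, plus) and Psmc2 (chr5:21785236-21785262, plus) are shown as examples from an alpha subunit, a beta subunit and an ATPase, with the box in capitals and beginning 54, 43 and 28 bases before the start.
Psma2: gtgactctcctCCAATcagagcaaaga
Psmb3: cggcccgccagCCAATggggaggattc
Psmc2: acggcctcgcgCCAATgcgcgcggccg
The differences of Psma2, Psmb3 and Psmc2 were 0.05, -0.15 and -0.06, each smaller than its standard error of 0.12, 0.20 and 0.17.

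None of the immunoproteasome subunits passed the test either. Psmb8, which replaces Psmb5, read 9.26, 9.60 and 9.51 in wild type against 9.49, 9.62 and 9.20 in heterozygotes. Psmb9, which replaces Psmb6, read 8.93, 9.25 and 8.98 against 8.87, 9.17 and 8.99. Psmb10, which replaces Psmb7, read 9.03, 9.53 and 9.67 against 9.25, 9.43 and 8.95. Psmb8 and Psmb10 were lowest in heterozygous replicate 3 and next lowest in wild-type replicate 1, and the genotypes overlapped for all 3 subunits. The differences were -0.02 (standard error 0.17) for Psmb8, -0.04 (0.15) for Psmb9 and -0.20 (0.22) for Psmb10, with limma adjusted p of 0.988, 0.974 and 0.928. Their 95% intervals allow a fold of heterozygous over wild type from 0.743 to 1.31 for Psmb8, 0.753 to 1.25 for Psmb9 and 0.597 to 1.27 for Psmb10. Psmb10 stood at -0.39 when wild-type replicate 1 was left out and at -0.07 when replicate 3 of either genotype was, and the Actb ratio as covariate gave -0.03. A second, dim probe set of Psmb8 gave -0.79, with overlap between the genotypes.

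These small differences changed sign between arrays split by the Actb ratio, and the part of RNA integrity in them was not tested. Among the 3 arrays of lower Actb 3' to 5' ratio (wild-type replicate 1 and heterozygous replicates 2 and 3), Psmb8, Psmb9 and Psmb10 differed by 0.15, 0.15 and 0.16. Among the 3 of higher ratio (wild-type replicates 2 and 3 and heterozygous replicate 1) they differed by -0.06, -0.24 and -0.35. Each of these values sets 1 array of a genotype against 2 of the other, so none has a test. Of all 42 members, 26 (61.9%) had opposite signs in these sets of arrays, as did 48.7% of all genes.

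Each inducible subunit was compared with its catalytic counterpart as the log2 difference of the pair within an array, centred on its mean over the 6 arrays. These are RNA values of whole tissue, so the exchange of subunits in the particle was not measured. The heterozygous minus wild-type difference was 0.19 for Psmb8 minus Psmb5, 0.06 for Psmb9 minus Psmb6 and -0.39 for Psmb10 minus Psmb7. Over these 3 pairs the exact two-sided permutation p was 0.3, 0.7 and 0.4 (0.6, 0.7 and 0.6 after Benjamini-Hochberg adjustment), where 3 arrays against 3 cannot give less than 0.1. The last pair rested on wild-type replicate 3, at 0.88 against -0.44 and 0.16 in the other wild-type arrays and -0.23 to -0.13 in the heterozygous ones.

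**Figure D2:**
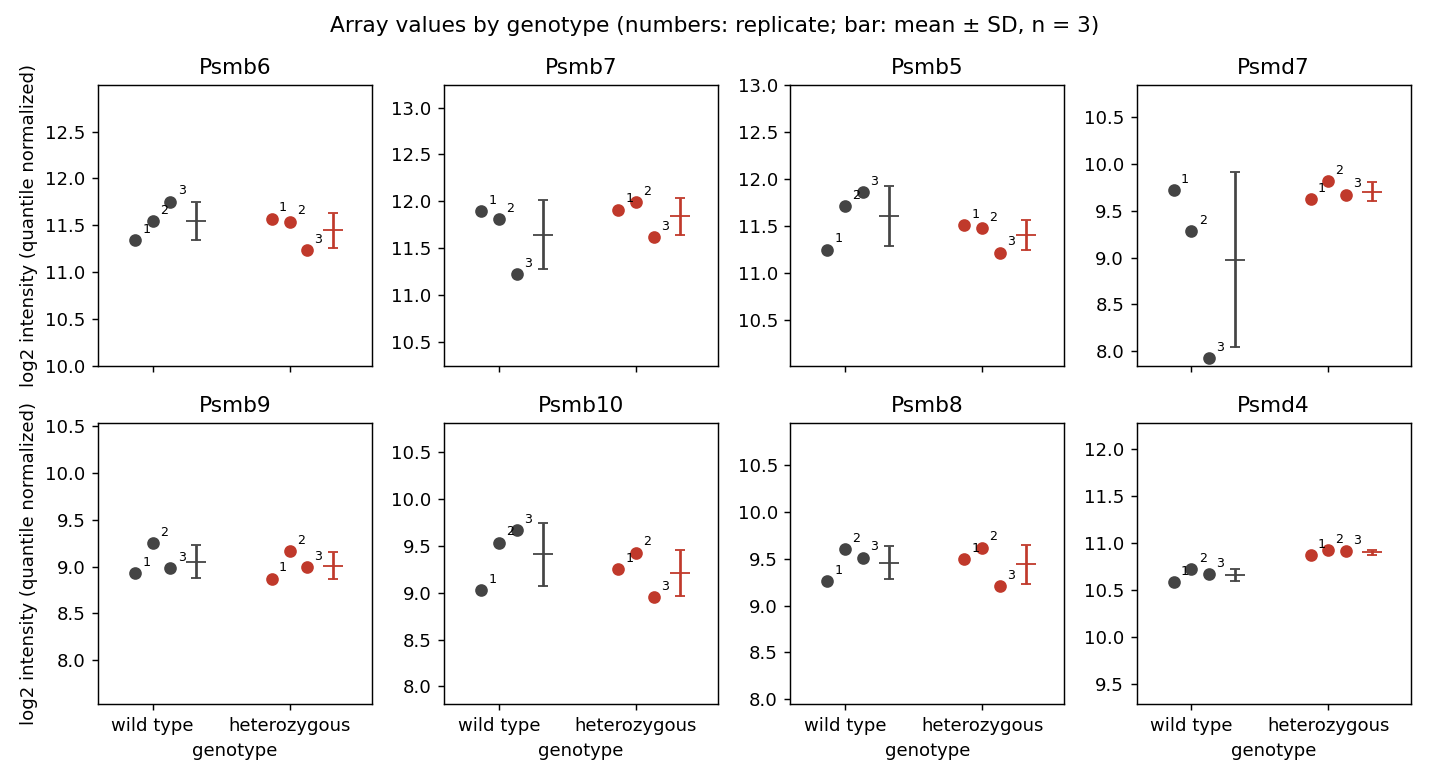
Quantile-normalized log2 intensity (vertical axes, each 3 log2 units high) of the catalytic subunits, the immunoproteasome subunits that replace them, Psmd7 and Psmd4 in wild-type and heterozygous oviducts; points are arrays numbered by replicate and bars are mean ± SD (n = 3). The genotypes overlap in every panel but that of Psmd4, and wild-type replicate 3 stands apart for Psmd7 and Psmb7.

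Immunoproteasome genes are abundant in leukocytes, and the leukocyte markers had a higher sum in heterozygotes. The summed intensity of 24 markers ranged from 14924 to 19256 in wild-type and from 20007 to 25798 in heterozygous arrays, with 17 of 24 higher and a median difference of 0.10. The sum moved with a few genes, such as Jchain of plasma cells, at 0.86, and the neutrophil gene S100a8, at 4.24. The pan-leukocyte gene Ptprc stood at 0.25 and the macrophage receptor gene Csf1r at 0.07. Lower in heterozygotes were 7 of the 24, among them the T cell genes Cd3e (-0.53) and Cd8a (-0.35), whereas Cd3g stood at 0.24. With limma, 0 of the 24 passed the adjusted threshold, against 0.0165% of all genes. In whole tissue, a change in the number of cells of a type and a change in RNA per cell cannot be told apart. Between the same groups Psmb8, Psmb9 and Psmb10 stood at -0.02, -0.04 and -0.20, and the part of leukocytes in these values was not tested.

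Psmb9 lies head to head with the peptide transporter gene Tap1, and Psmb8 is its neighbour in the MHC region. A shortened interferon response motif, GAAANNGAA on both strands, occurred in 6 of the 39 promoters, 15.4%, against 8.56% of all promoters, but in 1 of the 6 promoters of Psmb8, Psmb9, Psmb10, Psme1 and Psme2, where it lay in the transcribed part of the Psme1 window. The 80 bases before the start are shown for Psmb8 (chr17:34198115-34198194, plus strand) and Psmb9 (chr17:34187331-34187410, minus strand), the neighbouring inducible genes. Capitals mark the reverse complement of a CCAAT box, the only match of the motifs searched in either stretch.
Psmb8: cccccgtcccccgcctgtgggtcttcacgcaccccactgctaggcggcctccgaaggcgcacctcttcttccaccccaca
Psmb9: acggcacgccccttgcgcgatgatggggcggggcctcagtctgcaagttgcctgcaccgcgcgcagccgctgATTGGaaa
No match says only that these letters are not in these windows.

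Genes outside the list that act around these subunits were read in the same fit. Of 15 measured genes of class I presentation and its regulators 11 were higher and 4 lower, with a median of 0.04; the median was -0.03 without wild-type replicate 1 and -0.04 without heterozygous replicate 2. Irf1, an interferon-induced regulator, stood at 0.32 without overlap (limma adjusted p = 0.858), the trimming peptidase Erap1 at 0.21 and the transporter subunit Tap2 at -0.20. Of 12 interferon-stimulated genes 2 were higher and 10 lower, with a median of -0.24. Without wild-type replicate 3, where Ifit1, an antiviral effector, read 10.62 against 8.33 to 8.98 elsewhere, 7 were higher and 5 lower, with a median of 0.03. Irgm1, an interferon-induced GTPase, stood at -0.54 (adjusted p = 0.610) without overlap, Gbp3 at -0.40 and Gbp2 at 0.40. None of the genes in either list passed the adjusted threshold (limma). Of these 27, 1, Irgm1, had an unadjusted p under 0.05, against 6.44% of all genes. The genotypes did not overlap in 1 gene of each list (6.67% and 8.33%), against 11.8% of all genes.

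The activators bind the ends of the barrel. Psme1, a subunit of the interferon-inducible PA28 ring, read 11.38, 11.59 and 11.44 in wild type against 11.46, 11.65 and 11.38 in heterozygotes. Psme3, the nuclear member of that family, read 8.19, 8.17 and 8.17 against 8.04, 8.35 and 7.97. Psme4, the large single-chain activator PA200, read 11.31, 10.98 and 10.83 against 11.08, 10.96 and 11.29. All 3 overlapped between the genotypes, and the differences were 0.02 (standard error 0.13), -0.06 (0.14) and 0.07 (0.17), with limma adjusted p of 0.983, 0.957 and 0.958. Psme3 varied little among the wild-type arrays (SD 0.01) and more among the heterozygous ones (SD 0.20), a difference in spread that was not tested. The 6 probe sets of Psme4 ranged from -0.88 to 0.66, the extremes with overlap. The probe set at 0.66 read 8.37 in wild-type replicate 3 and 9.59 to 10.07 elsewhere. The probe set at -0.88 was the dimmest, with a standard error of 1.06, and another, with a mean level of 7.34, gave -0.40 without overlap.

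The ATPases of the regulatory particle, Psmc1 to Psmc6, unfold the substrate. They gave 4 higher and 2 lower differences, with a median of 0.08 and a range from -0.18 to 0.23. Psmc4 read 10.83, 10.72 and 11.27 in wild type against 11.24, 11.20 and 11.08 in heterozygotes. Only wild-type replicate 3 reached the heterozygous range, so the difference of 0.23 (standard error 0.18, limma adjusted p = 0.891) was 0.40 without that array, where the unadjusted p was 0.0291 and the adjusted p 0.845. Without wild-type replicate 2 it was 0.12 (adjusted p = 0.992). Its other probe set gave 0.15. Psmc5 read 10.40, 10.91 and 10.44 in wild type against 10.38, 10.48 and 10.34 in heterozygotes. Wild-type replicate 2 stood above the other arrays, and the difference of -0.18 (standard error 0.17, adjusted p = 0.910) was -0.02 without it. Psmc6 gave 0.21 (standard error 0.22, adjusted p = 0.920), with overlap, and 0.42 without wild-type replicate 1 (adjusted p = 0.467). Its next brightest probe set gave -0.02 and its dimmest 0.22. Psmc3 was the steadiest of the ring, with means of 11.19 ± 0.04 (SD, n = 3) and 11.25 ± 0.05 (SD, n = 3).

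In the base of the regulatory particle, the scaffold subunits Psmd1 and Psmd2 each differed by 0.02. Psmd4, the ubiquitin receptor also known as Rpn10, had the lowest p of all members. It read 10.59, 10.72 and 10.67 in wild type against 10.87, 10.93 and 10.91 in heterozygotes. Every heterozygous array lay above every wild-type array. The fold was 1.18 (log2 difference 0.24, standard error 0.11, limma p = 0.0673, adjusted p = 0.809, exact permutation p = 0.1, the smallest this design allows). Leaving out any array gave 0.21 to 0.28, and the arrays of lower and of higher Actb ratio gave 0.33 and 0.18. Its next brightest probe set gave 0.58 with overlap, since it read 8.95 in wild-type replicate 3 and 10.15 to 10.67 elsewhere, and the dimmest gave -0.52. The mean over the Psmd4 probe sets was 0.10.

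The lid removes ubiquitin from the substrate. Its 8 measured subunits split evenly, 4 higher and 4 lower, with a median of 0.03. Psmd3 read 11.48, 11.81 and 11.84 in wild type against 11.49, 11.47 and 11.28 in heterozygotes. Wild-type replicate 1 lay within the heterozygous range and the other wild-type arrays above it. The difference was -0.30 (standard error 0.15, limma p = 0.0929, adjusted p = 0.826, exact permutation p = 0.2), the most negative of the 42, and ranged from -0.41 to -0.23 when any array was left out.

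Psmd7, the partner of the deubiquitinase Psmd14, had the largest difference of all members and the widest interval. It read 9.72, 9.28 and 7.93 in wild type against 9.63, 9.81 and 9.67 in heterozygotes. The low value of wild-type replicate 3 made up most of the difference of 0.73 (standard error 0.46, adjusted p = 0.873), which was 0.20 without that array and 1.10 without wild-type replicate 1. Between arrays of lower Actb ratio the difference of Psmd7 was 0.02, and between those of higher ratio 1.02. The dimmer probe sets of Psmd7 gave 0.26 and 0.72, the latter without overlap (unadjusted p = 0.0466 over probe sets). Psmd14 itself differed by 0.07, and Psmd6, Psmd8, Psmd11, Psmd12 and Psmd13 by -0.02, 0.15, -0.01, 0.07 and -0.02.

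Chaperones that assemble the regulatory particle gave -0.19 for Psmd5, -0.01 for Psmd9 and 0.04 for Psmd10. Psmd5 read 10.30, 10.31 and 10.12 in wild type against 10.07, 9.96 and 10.12 in heterozygotes. Heterozygous replicate 3 and wild-type replicate 3 met at 10.12, and the other arrays were apart (standard error 0.12, adjusted p = 0.878). Psmg1 and Psmg2, which pair to build the alpha ring, differed by 0.03 and 0.01.

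Arrays differed in how far the members strayed from their usual level. As the distance of an array from the mean of the other 5, the median over members was 0.22 in wild-type replicate 3, 0.16 in wild-type replicate 1, 0.15 in heterozygous replicate 3 and 0.07 to 0.10 in the others. Among genes at least as bright as the dimmest member the same distance was also largest in wild-type replicate 3, at 0.21. Wild-type replicate 3 held the highest or the lowest value of 27 of the 42 members (13 highest, 14 lowest), and heterozygous replicate 3 that of 19 (4 highest, 15 lowest). These are 64.3% and 45.2% of the members, against 51.3% and 30.2% of the genes at least as bright as the dimmest member. That set of genes was not matched to the members in brightness. The members did not shift one way in either genotype: their median deviation from the gene's own mean was 0.00, 0.01 and -0.03 in wild type against 0.00, 0.02 and -0.04 in heterozygotes.

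**Figure D3:**
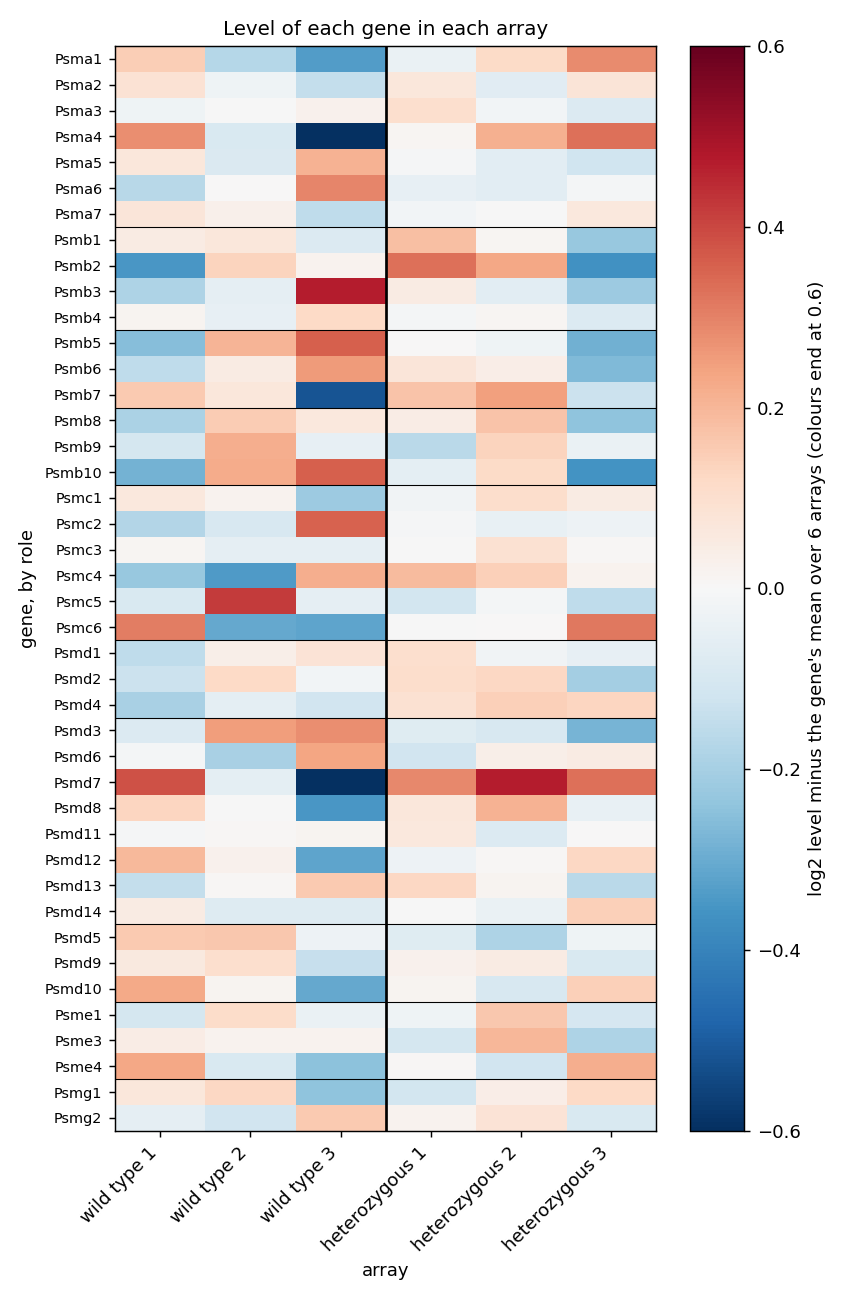
Log2 level of each of the 42 genes (rows, ordered by role, lines between roles) in each of the 6 arrays (columns, wild type left of the black line), as the distance from the gene's mean over all arrays; red is higher, blue is lower and colours end at 0.6. Wild-type replicate 3 holds both the deepest blue (Psmd7, Psma4) and strong red (Psmb3).

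The gaps between probe sets of the same gene were widest in wild-type replicate 3, the array with the high 3' to 5' ratios. The 42 genes had 90 probe sets in all, with 23 genes having several, and 69 probe sets were brighter than the median of all probe sets (7.28). For 17 genes at least 2 probe sets were that bright. In wild-type replicate 3, 11 of these 17 had their brightest and next brightest probe sets on opposite sides of the mean of the other 5 arrays, with a median gap of 0.43 (5 to 9 of 17 and 0.08 to 0.23 in the other arrays). Psmb3 was an example, as 1 probe set read 11.95 there, its highest value, and the other 10.10, its lowest. For Psma6 the values were 12.74, the highest, and 11.51, the lowest. The part of RNA integrity in these gaps was not tested. The same count was not made for other genes, so whether the gaps are particular to proteasome genes is unknown.

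**Figure D4:**
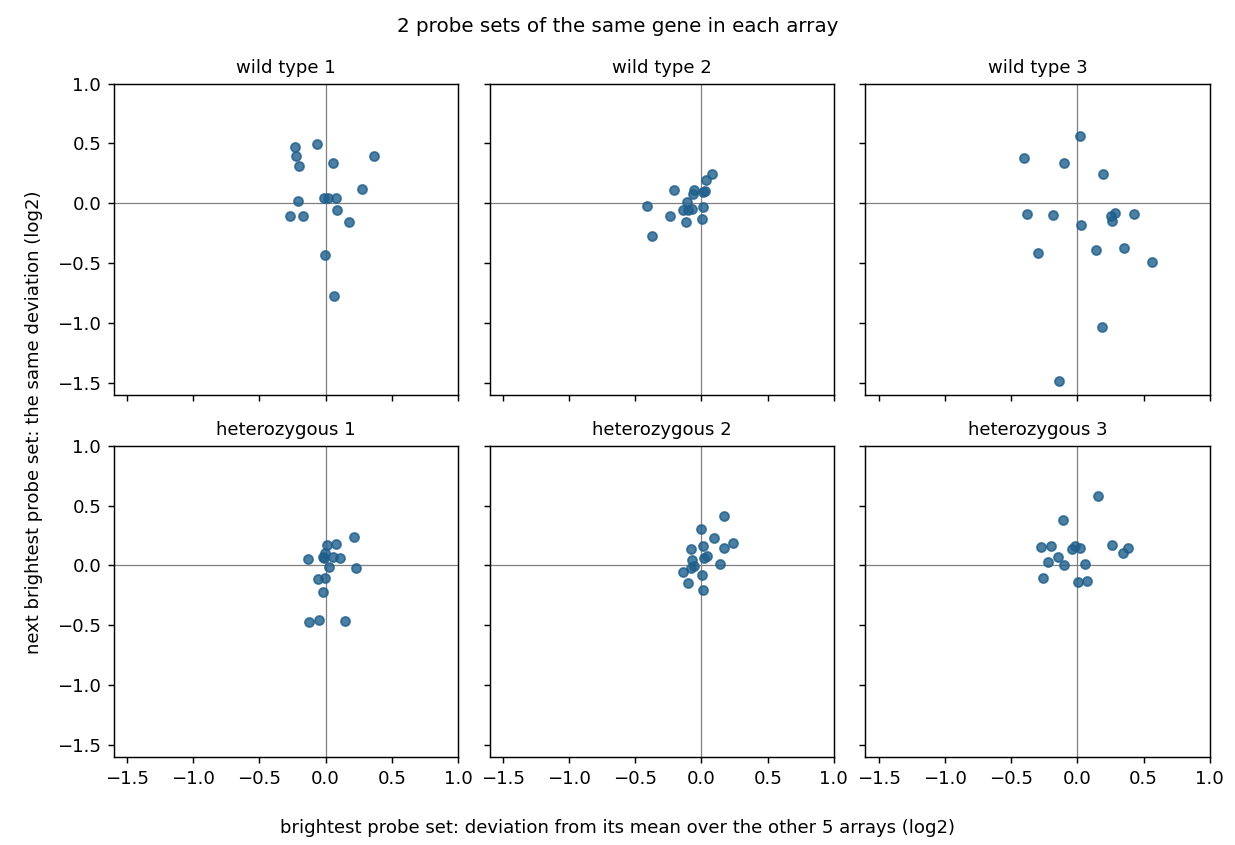
Deviation of an array from the mean of the other 5 (log2) for the brightest (horizontal) and the next brightest (vertical) probe set of 17 proteasome genes, 1 panel per array and 1 point per gene. The points spread widest in wild-type replicate 3, where 11 of 17 fall on opposite sides and the median gap is 0.43.

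Counted over all 90 probe sets, 49 were higher and 41 lower. With limma over probe sets, 2 had an unadjusted p under 0.05, which is 2.22% against 5.18% of all probe sets, and 6 did not overlap, which is 6.67% against 10.5%. The lowest adjusted p was 0.933. Both with an unadjusted p under 0.05 were dimmer than another probe set of their gene: the Psmd7 probe set above and a Psmd13 probe set at 0.48 (unadjusted p = 0.0308), whereas another Psmd13 probe set stood at -0.28 without overlap.

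Other parts and partners of the proteasome outside the list were read too: 18 of 21 listed genes were measured, 7 higher and 11 lower, with a median of -0.04, and none passed the adjusted threshold (limma). The median was 0.01 without wild-type replicate 3 and 0.04 without heterozygous replicate 1. Of the 18, 2 (11.1%) had an unadjusted p under 0.05 (limma), against 6.44% of all genes. Both were dim genes of tissue-specific subunits, and they were also the only 2 without overlap (11.1%, against 11.8% of all genes). Psmb11, the catalytic subunit of the thymus, read 5.71, 5.69 and 5.06 in wild type against 3.87, 3.23 and 3.45 in heterozygotes, without overlap (log2 difference -1.97, standard error 0.25, adjusted p = 0.226). Psma8, the alpha subunit of the testis, stood at 1.24 (standard error 0.46, adjusted p = 0.738), also without overlap. Both lay below the median of all probe sets, where whether a value is above background is unknown, and with 16 added to each intensity before log2 they gave -1.15 and 0.84. Among brighter genes of the list, Zfand5, which stimulates the proteasome, stood at 0.32 (adjusted p = 0.861) and Pomp, the maturation chaperone of the barrel, at 0.17.

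In the list of Nfe2l1 and Nfe2l2, their partners and target genes, 11 of 15 were higher, with a median of 0.07. Nfe2l1 itself differed by -0.07 and Nfe2l2 by 0.06, and the lowest p belonged to Mafk, a partner of both, at 0.24 (adjusted p = 0.882), followed by Ngly1, which activates Nfe2l1 by removing its glycans, at 0.23, and Gclc, a glutathione synthesis gene, at 0.17. Of 10 genes of the extraction factor Vcp and its cofactors 4 were higher and 6 lower, with a median of -0.06, or 0.02 without wild-type replicate 2 and 0.00 without heterozygous replicate 3. Vcp stood at 0.03, Faf2 at -0.23 (adjusted p = 0.866), Ubxn4 at -0.16 and Derl1 at -0.15. Of 6 genes for ubiquitin and its activating enzymes 1 had a probe set of its own, Uba6, at -0.10. None of these 26 genes had an unadjusted p under 0.05 (limma), against 6.44% of all genes.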

How the data were processed

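The deposited values are linear intensities, 1 for each probe set on each of the 6 single-colour arrays, hybridised with biotinylated cRNA from 1 µg of RNA per the labels' protocols. Which program the authors used to summarise probes is not stated in the labels. After trimming 2% at each end the mean was 500.002 in all 6 arrays, so the deposited values had been scaled. The 64 control probe sets were left out, intensities under 1 set to 1, log2 transformed and quantile normalized, since array medians differed by 0.147. No detection calls were used. Of 45037 probe sets 34945 had 1 symbol, giving 18193 genes by the brightest probe set.

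Differences were fitted over all genes with limma 3.58.1 (lmFit, eBayes; R 4.3.3). Tests were two-sided, and p-values were adjusted by Benjamini-Hochberg. Single values were compared by exact permutation over 20 assignments. The script was tested on simulated data. Members, lists, the rule for named genes (the 10 of lowest p, the catalytic and inducible beta subunits, the activators, up to 3 per further list) and tests were chosen with earlier results of these data known. Motif searches used the RefSeq promoter table; genes named beyond the rule, probe set gaps, pair differences and the split by 3' to 5' ratio beside genes were chosen after values were seen. Protein sequences were not used here.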

Additional observations from a re-analysis of the deposited data

How the results depend on the processing

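No member passed the adjusted threshold under any of the 16 alternatives, and 0 of 536 values of 34 named genes crossed it. The count over all genes was 3, against 1 with the filter on dim genes, 1 with trend and robust, 7 with array weights and 0 with the replicate block, without probe sets ending in _x_at, _s_at or _a_at, with the Actb 3' to 5' ratio added as covariate and with arrays blocked by its class; it was 0 to 0 when any array was left out. Members with an unadjusted p under 0.05 numbered 0, against 2 with trend and robust (Psmd3, Psmd4), 2 with array weights (Psmc4, Psmd3), 1 with the mean of probe sets (Psmd7), 1 with the covariate (Psmc4) and 0 to 3 when an array was left out, the 3 being Psmc6, Psmd3 and Psmd7 without wild-type replicate 1. Over all genes, the share with an unadjusted p under 0.05 (limma) was 6.89% with trend and robust and 14% with array weights. That share was 5.93% with the mean of probe sets and 6.12% with the covariate. Without wild-type replicate 1 it was 10.5%, and without wild-type replicate 3 it was 5.47%. The members' median was -0.0142 to 0.0460 when an array was left out, highest without wild-type replicate 2.

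Some differences changed sign, among them those of Psmb7, Ubxn4 and Derl1, which were 0.20, -0.16 and -0.15 in the main fit. With the covariate Psmb6 stood at 0.0349, Psmb7 at -0.0056, Psmb8 at 0.0405 and Psme4 at -0.0576; with the classes as a block Psmb8 stood at 0.0445 and Psme4 at -0.0014. Psme1 gave -0.0188 with array weights, Psme4 -0.0476 and Ubxn4 0.10 with the mean of probe sets, and Derl1 0.15 without the probe sets named above. Leaving out 1 array gave -0.20 to 0.0075 for Psmb6, -0.0146 to 0.32 for Psmb7, -0.12 to 0.10 for Psmb8, -0.12 to 0.0558 for Psmb9, -0.0502 to 0.0854 for Psme1, -0.17 to 0.0168 for Psme3, -0.0330 to 0.21 for Psme4 and -0.18 to 0.0147 for Uba6. The cause was not tested.

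No pairing of arrays by replicate number was seen: deviations of same-numbered arrays correlated at -0.10, -0.03 and -0.08 across genes, and no array correlated best with its own number. This check cannot exclude that same-numbered samples were processed together. With the replicate block 0 genes passed. The number of arrays limits the precision.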
